A study of Mus musculus with 12 samples.

Results

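The hotspots of meiotic double-strand breaks at and inside 111 genes of the sperm and spermatid gene families were described in the testis of Ankrd31 knockout mice and of wild type mice. The genes were chosen by name from the 21631 protein-coding genes of the RefSeq annotation of GRCm38 on the autosomes and X. They were those whose symbol starts with Spata (without Spata22), Spaca, Tssk, Odf, Catsper, Izumo, Crisp or Adam followed by a digit, together with the transition protein genes Tnp1 and Tnp2 and the protamine genes Prm1, Prm2 and Prm3. For each gene, hotspots centred within 1 kb of either end, and hotspots centred between the ends, were taken from the deposited lists. The knockout mice carried the Ankrd31 allele tm1Atot, on a strain background that the labels leave out. The wild type mice were C57BL/6JCrl, so that the lost allele and any difference in strain cannot be told apart. All were adult males, whole testis was used, and the series has 2 DMC1 samples of each genotype but 1 hotspot list for each, so no value has a replicate check and no test between genotypes was possible.

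The assay was DMC1 single-stranded DNA sequencing, in which DNA bound by the meiotic recombinase DMC1 is precipitated with an antibody and its single strands are enriched. An interval with more reads than background is a hotspot, and its strength is the number of reads minus a background estimate. Strength counts DMC1-bound DNA over all cells, so that more cells with a break and a longer stay of DMC1 in each cell cannot be told apart. In mice most hotspots lie where PRDM9 binds and marks nucleosomes. Where PRDM9 does not direct the breaks, they are known to fall on promoters and other open chromatin. ANKRD31 is a partner of the proteins that form the breaks.

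Sperm and spermatid genes serve the steps after meiosis. Transition proteins and protamines replace histones while the spermatid nucleus condenses. SPACA and IZUMO proteins belong to the acrosome and the sperm surface that meets the egg, ODF proteins to the dense fibres of the tail, and CATSPER proteins to the calcium channel of the tail. TSSK proteins are kinases of spermatids. Choice by name also brings in genes of other cells: Izumo1r encodes JUNO, the egg receptor of IZUMO1, and Adam10 and Adam17 encode proteases that shed proteins from the surface of most cells. A list of 22 members known for broad or somatic functions, Adam10 and Adam17 among them, was therefore described apart from the other 89. Izumo1r is not in that list, so the other 89 are not all genes of sperm.

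The promoters of 6 members show the range of sequence at these genes. Each is 300 bases from the RefSeq table of GRCm38.p6, with 250 bases before the annotated start and 50 after it, read 5′ to 3′ on the strand of the gene, and capitals mark CpG dinucleotides. Spata1, Adam10 and Crisp2 had a hotspot of the knockout list at this start. Spata2 had none despite a CpG-rich promoter, and Prm1 and Izumo3 had none and have promoters poor in CpG.
Spata1, chr3:146499704-146500003, minus strand: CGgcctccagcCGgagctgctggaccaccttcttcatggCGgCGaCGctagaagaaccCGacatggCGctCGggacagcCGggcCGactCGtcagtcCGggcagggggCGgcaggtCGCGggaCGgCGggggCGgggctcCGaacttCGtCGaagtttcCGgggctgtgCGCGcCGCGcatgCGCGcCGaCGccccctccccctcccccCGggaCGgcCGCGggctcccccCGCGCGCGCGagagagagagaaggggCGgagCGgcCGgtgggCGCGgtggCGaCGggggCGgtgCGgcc
Adam10, chr9:70678732-70679031, plus strand: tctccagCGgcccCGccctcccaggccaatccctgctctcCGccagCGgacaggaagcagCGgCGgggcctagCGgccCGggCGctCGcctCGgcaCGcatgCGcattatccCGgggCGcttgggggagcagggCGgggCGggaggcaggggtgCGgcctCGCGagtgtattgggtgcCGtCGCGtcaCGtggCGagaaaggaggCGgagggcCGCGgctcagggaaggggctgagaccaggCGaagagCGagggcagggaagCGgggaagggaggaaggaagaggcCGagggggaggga
Crisp2, chr17:40794097-40794396, minus strand: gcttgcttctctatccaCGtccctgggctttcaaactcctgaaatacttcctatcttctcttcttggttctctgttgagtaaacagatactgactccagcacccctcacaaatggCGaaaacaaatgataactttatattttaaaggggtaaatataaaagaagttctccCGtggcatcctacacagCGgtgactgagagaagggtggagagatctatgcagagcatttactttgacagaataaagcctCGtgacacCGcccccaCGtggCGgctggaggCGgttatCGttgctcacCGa
Spata2, chr2:167492825-167493124, minus strand: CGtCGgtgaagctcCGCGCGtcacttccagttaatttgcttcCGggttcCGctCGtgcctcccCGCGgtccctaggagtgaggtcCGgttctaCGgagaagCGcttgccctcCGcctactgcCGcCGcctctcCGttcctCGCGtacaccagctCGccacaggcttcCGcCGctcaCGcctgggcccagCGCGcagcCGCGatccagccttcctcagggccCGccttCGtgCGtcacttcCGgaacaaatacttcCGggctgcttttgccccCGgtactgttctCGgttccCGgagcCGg
Prm1, chr16:10796774-10797073, minus strand: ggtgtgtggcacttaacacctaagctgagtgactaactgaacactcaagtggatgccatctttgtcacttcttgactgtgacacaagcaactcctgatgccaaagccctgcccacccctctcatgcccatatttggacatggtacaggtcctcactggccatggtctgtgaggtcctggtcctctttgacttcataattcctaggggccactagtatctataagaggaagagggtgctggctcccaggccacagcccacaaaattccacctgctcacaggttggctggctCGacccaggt
Izumo3, chr4:92147172-92147471, minus strand: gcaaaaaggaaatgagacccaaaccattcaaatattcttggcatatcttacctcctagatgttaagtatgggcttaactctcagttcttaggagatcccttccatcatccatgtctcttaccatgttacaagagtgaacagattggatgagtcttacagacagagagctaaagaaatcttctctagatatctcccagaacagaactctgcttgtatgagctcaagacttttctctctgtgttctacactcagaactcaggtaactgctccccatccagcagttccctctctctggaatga
The Spata1 promoter holds 48 CpG, that of Spata2 36, that of Adam10 32 and that of Crisp2 11. The Prm1 promoter holds 1 CpG and the Izumo3 promoter 0.

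The knockout list held 22034 hotspots with 4203380 reads, and the wild type list 13480 hotspots with 4376692 reads. Strengths, read counts and ranks of hotspots are the authors' deposited values. A hotspot is called knockout-only when no wild type hotspot overlaps it by at least 1 bp, and shared when one does. A list holds only what passed its calling threshold: the weakest knockout hotspot had a strength of 16 and the weakest wild type hotspot 18. DMC1 signal below these levels is not seen, and no fold change can be given for a knockout-only hotspot.

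The first question was whether breaks in the knockout used the ends of these genes. A knockout-only hotspot lay within 1 kb of an end of 20 of the 111 members, a share of 18% (exact 95% binomial interval 11.4 to 26.4%, counting error only). Over all protein-coding genes the share was 25.5% (5519 of 21631), inside the interval of the members. In the wild type list, 0 of 111 members had a hotspot at an end. A floor of 3 genes allows a share of up to 2.7% and the exact interval reaches 3.27%, against 1.99% over all protein-coding genes. No shared hotspot lay at a member's end, so that every end hotspot of the members was knockout-only. Most were over all protein-coding genes too: 5856 (27.1%) had any knockout hotspot at an end and 5519 (25.5%) a knockout-only one. In both lists the share of members was lower than that of all genes, which lay inside the interval of the members. The only member on X, Spaca5, had none, and its nearest knockout hotspot was 6154 bp from an end.

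The 20 members were met by 20 separate hotspots, since the end of Adam32 and the end of Adam9 that face each other shared 1 hotspot and Adam9 had another at its far end. Their strengths had a median of 85 and ran between 34 and 297. The median over the 4920 knockout-only hotspots at ends of any protein-coding gene was 94, and that of the whole knockout list 105. Of the 20, 8 exceeded the list's median and 12 did not. Added up, they made 0.0568% of all knockout strength. Most were centred close to the annotated end: 15 of 20 lay within 250 bp, and the median distance was 154 bp.

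**Figure D1:**
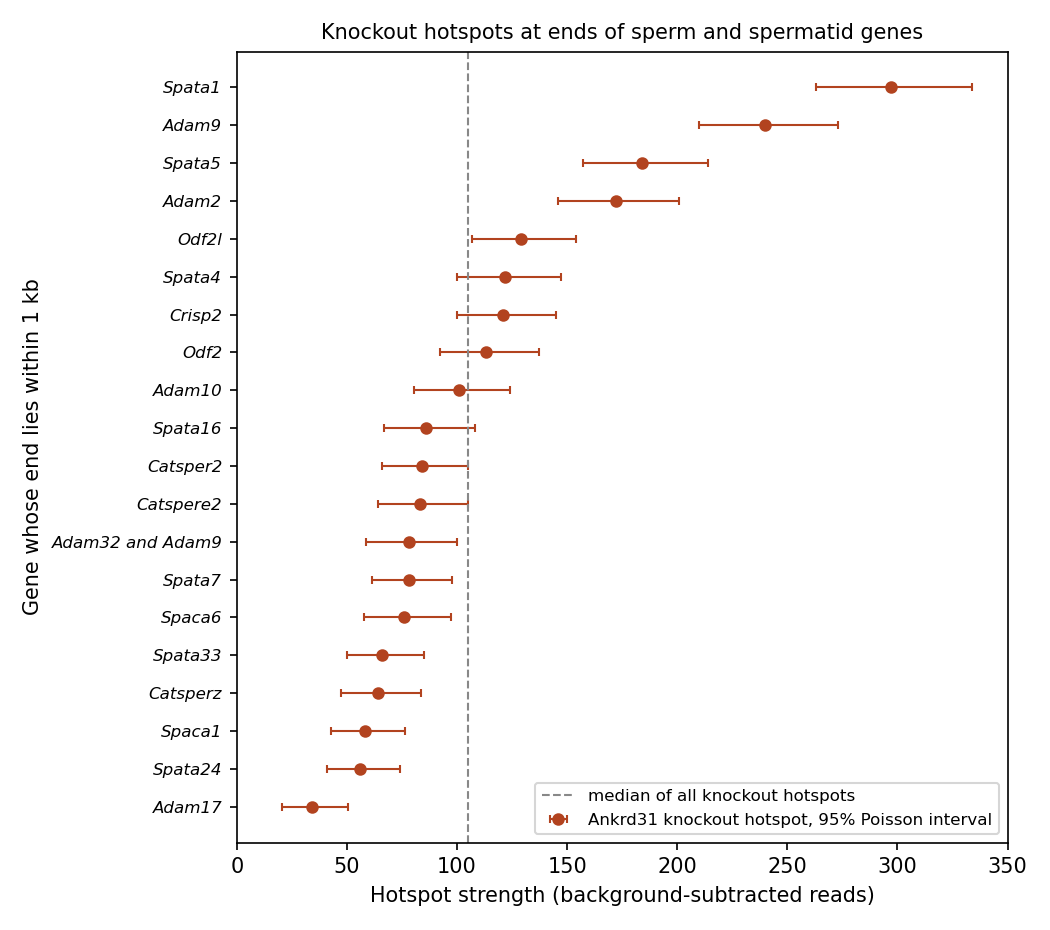
Strength in background-subtracted reads (x axis) of the 20 knockout-only hotspots at ends of sperm and spermatid genes, 1 row per hotspot with the genes it lies at. Bars are exact 95% Poisson intervals of the reads, less the background, and the dashed line is the median of all knockout hotspots (105). Spata1 (297) and Adam9 (240) lead, and 12 of the 20 sit at or below the line.

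The strongest end hotspot belonged to Spata1 on chromosome 3. It ran from 146498875 to 146500735 and had a strength of 297 (Poisson interval 263 to 334), rank 3333 in the knockout list. Its centre was 12 bp from the start of Spata1 and 31 bp from an end of Gng5, which encodes a G protein gamma subunit. The hotspot therefore covers the ends of both genes. Next was Adam9, a broadly expressed membrane protease, on chromosome 8 from 25015903 to 25017871 with 240 (210 to 273). That hotspot was centred 153 bp from the end of Adam9 and 324 bp from an end of Tm2d2. Spata5, whose product is an ATPase of ribosome maturation, followed on chromosome 3 from 37418232 to 37421370 with 184 (157 to 214). The Spata5 hotspot was centred 102 bp from the end of that gene and 441 bp from an end of Nudt6.

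Among genes of the sperm surface, Adam2 had the strongest end hotspot. ADAM2 is fertilin beta, a protein needed for sperm to reach and bind the egg. The hotspot lay on chromosome 14 from 66076781 to 66078461 with a strength of 172 (146 to 201), and its centre was 230 bp inside the gene. The Adam32 end facing Adam9 had 78 (58.8 to 100). Both are in the list of 21 ADAM genes of male germ cells, of which the other 19 had no knockout-only hotspot at an end (2 of 21, 9.52%, 1.17 to 30.4%, against 25.5% of all genes). Those without one included Adam1a, Adam1b and Adam3, whose products pair with ADAM2 or depend on it in mouse sperm. Adam20 and Adam25, also without one, have nearly identical promoters. The sources used here do not say how reads from such copies were placed, so hotspots near copied ADAM genes are uncertain. The median member of this list lay 65 kb from the nearest knockout hotspot and 95.6 kb from the nearest wild type hotspot, where the median over all members was 20.4 kb and 52.4 kb. A promoter entry was found for 11 genes of this list, with a median of 1 CpG and at most 4. Of these, 0 had an end hotspot (exact interval up to 28.5%), against 3.71% of all protein-coding genes with 5 or fewer CpG. Adam2 and Adam32 have no promoter entry.

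Of the 12 ADAM genes in the list of broad functions, 3 had an end hotspot: Adam9, Adam10 and Adam17. That of Adam10 had a strength of 101 (80.6 to 124) and was centred 65 bp outside the gene. That of Adam17, the protease that releases tumour necrosis factor, had 34 (20.6 to 50.5), the weakest of the 20, at rank 21583 of 22034. Adam15 had none, although the nearest knockout hotspot was only 1864 bp away with a strength of 38. Over all 34 ADAM members the count was 5 (14.7%, 4.95 to 31.1%, against 25.5% of all genes).

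Nuclear condensation genes were free of end hotspots in both lists. None of Tnp1, Tnp2, Prm1, Prm2 and Prm3 had one, and 5 genes are too few to set against the background of 25.5%. Prm1, Prm2, Prm3 and Tnp2 stand together in 8.89 kb of chromosome 16, from 10787935 to 10796823, and no hotspot of either list was centred in this span. A shared hotspot lay 1721 bp from Prm1 in the knockout, from 10797751 to 10799337 with a strength of 72 (55.4 to 91.6). In the wild type it ran from 10797561 to 10799201 with 48 (35.0 to 64.1). On the other side, a knockout-only hotspot of strength 141 (117 to 168) lay 2626 bp from Tnp2, from 10783995 to 10786623. Tnp1, alone on chromosome 1, was 87146 bp from the nearest knockout hotspot and 87132 bp from the nearest wild type hotspot.

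The 6 TSSK kinase genes had no end hotspot (exact interval up to 45.9%, against 25.5% of all genes). Tssk1 came closest, with a knockout hotspot of strength 101 at 2548 bp. Of the 5 IZUMO genes, Izumo1r among them, 0 had one (up to 52.2%). Both families are too small to set against the background. IZUMO1 is the sperm protein that binds the egg, and its gene Izumo1 had a knockout hotspot of strength 53 at 1821 bp from an end, outside the window. Izumo3 stood 632926 bp from the nearest knockout hotspot and 633024 bp from the nearest wild type hotspot, the farthest of the members in both lists.

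Acrosomal SPACA genes had 2 of 7 members with an end hotspot (28.6%, 3.67 to 71.0%, against 25.5% of all genes). Spaca1 encodes a membrane protein needed to shape the acrosome, and its hotspot on chromosome 4, from 34049501 to 34051069, had 58 (42.8 to 76.2). It was centred 218 bp upstream of the start. Spaca6 encodes a protein needed for fusion with the egg, and its hotspot had 76 (57.8 to 97.2). This hotspot sat at the 3′ end, 944 bp beyond the gene and 12979 bp from the start, and is the one closest to the 1 kb limit from inside.

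Tail genes gave 2 of 8 ODF members and 3 of 11 CATSPER members. Odf2, which encodes a fibre protein that is also a centriole component, had 113 (92.4 to 137) on chromosome 2, 59 bp upstream of an annotated start and 647 bp from the end of the gene. Odf2l, a related centriole gene, had 129 (107 to 154), 124 bp downstream of its nearest annotated start. The pore subunit gene Catsper2 had 84 (65.7 to 105), 166 bp upstream of its start, but this hotspot was centred nearer to the start region of Pdia3, a protein-folding enzyme gene, at 56 bp. The auxiliary subunit gene Catsperz had 64 (47.5 to 83.5), and here too the end of a neighbour was nearer: Esrra, which encodes an orphan nuclear receptor, at 61 bp against 439 bp. Catspere2 had 83 (64.1 to 105) at 310 bp inside the outer end of the annotated gene, 7933 bp upstream of the start in the promoter table.

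Within the SPATA family 7 of 29 members had an end hotspot (24.1%, 10.3 to 43.5%, against 25.5% of all genes). Besides Spata1 and Spata5 these were Spata4 with 122 (100 to 147), Spata16 with 86 (67.0 to 108), Spata7 with 78 (61.3 to 97.7), Spata33 with 66 (49.9 to 85.1) and Spata24 with 56 (41.0 to 74.0). SPATA16 is a protein of acrosome formation whose loss gives round-headed sperm, and SPATA7 is a protein of the photoreceptor cilium. Spata33 shared its hotspot with Chmp1a, an endosomal sorting gene, whose end was 58 bp from the centre against 9 bp for Spata33. The Spata31 genes on chromosome 13, a family in repeated copies, had none: Spata31, Spata31d1a, Spata31d1b, Spata31d1c and Spata31d1d lay 28746 to 126304 bp from the nearest knockout hotspot. The sources used here do not say how reads from near-identical copies were placed, so hotspots near these genes are uncertain. CRISP genes had 1 of 6 (16.7%, 0.421 to 64.1%). Crisp2, which encodes a protein of the acrosome and tail, had 121 (100 to 145), 19 bp from its start on chromosome 17. Crisp1, Crisp3 and Crisp4 had none.

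**Figure D2:**
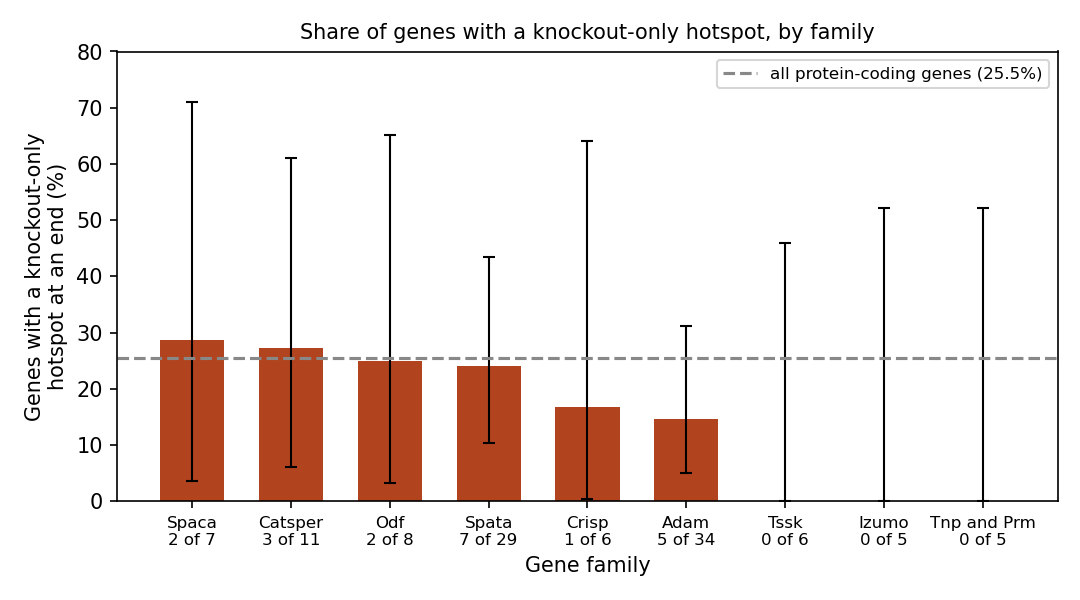
Percent of genes of each family with a knockout-only hotspot within 1 kb of an end (y axis), with exact 95% binomial intervals, and the number of genes under each bar. The dashed line is the share of all protein-coding genes (25.5%). Every interval spans the line, and Tssk, Izumo and the joined Tnp and Prm genes have bars of height 0.

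Members of broad function had end hotspots in 7 of 22 genes (31.8%, 13.9 to 54.9%), and the remaining members in 13 of 89 (14.6%, 8.01 to 23.7%). The intervals overlap, and the difference has no test here. The interval of the remaining members lies below the 25.5% of all protein-coding genes. The split was chosen with earlier results of these data known, so this position of the interval is not evidence of a difference. The interval also counts each gene as independent, although some members are related genes that lie together.

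The sequence at the start differed between members with and without an end hotspot. A promoter was found for 86 of the 111 members, and where a gene had several the one with most CpG was used. The 16 members with a knockout-only end hotspot and a promoter entry had a median of 22 CpG in 300 bases (range 5 to 48), and the 70 without had a median of 4 (0 to 36). Over all protein-coding genes the medians were 24 and 9. These groups go by hotspots at either end of the gene. The hotspots of Catsperz, Spaca6 and Catspere2 lay over 1 kb from an annotated start. Adam19 and Spata13, counted as without, had a knockout-only hotspot at an inner start. As a whole the members are poor in CpG, with a median of 5 against 15 over the 17274 protein-coding genes with an entry. Of the members 53.5% had 5 CpG or fewer, against 30.1% of all.

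Members were then set beside all protein-coding genes within classes of CpG number. With 0 to 2 CpG, 0 of 26 members had an end hotspot (up to 11.5% by the floor of 3 genes and 13.2% by the exact interval), against 2.39% of all protein-coding genes of that class. With 3 to 5 CpG the shares were 5.0% (1 of 20) and 5.58%. With 6 to 10 they were 30.8% (4 of 13, 9.09 to 61.4%) and 14.0%. With 11 to 20 CpG, 25% of members (3 of 12) and 31.6% of all genes had one. In the class of 21 or more these were 53.3% (8 of 15, 26.6 to 78.7%) and 44.8%. The interval of the members included the share of all genes in each class. With 12 to 26 members in a class these intervals are wide, and they cannot show that the shares are alike. Above 5 CpG, the shares were 40.0% (6 of 15) in members of broad function and 36.0% (9 of 25) in the other members. At 5 or fewer CpG there was no member of broad function, and 1 of 46 other members had an end hotspot. That member was Spaca6, whose hotspot lies at its 3′ end.

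**Figure D3:**
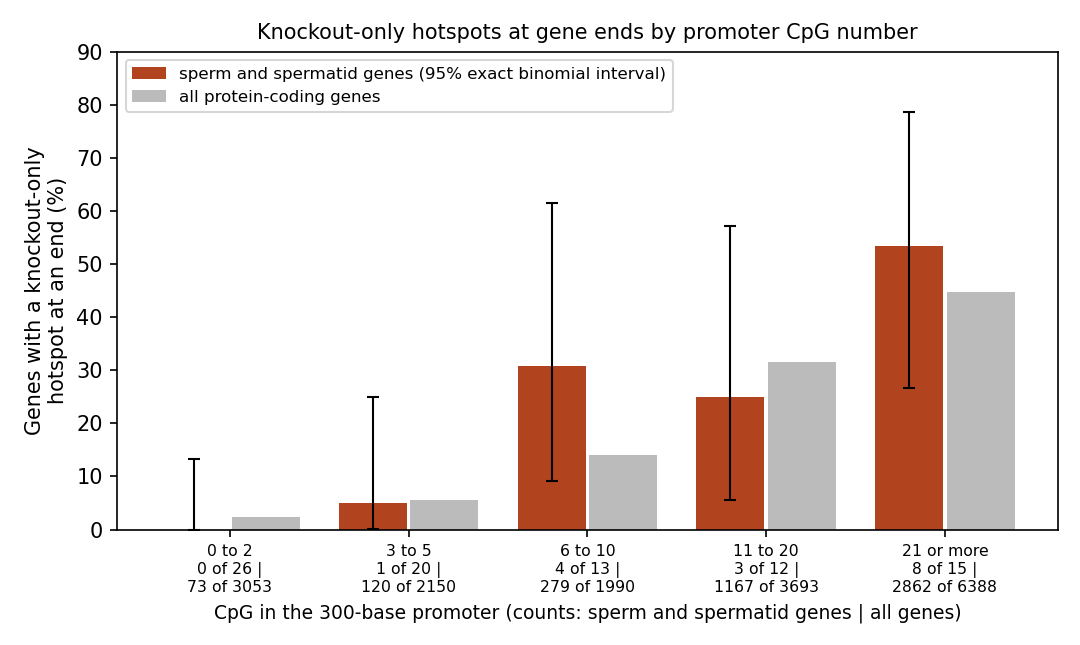
Percent of genes with a knockout-only hotspot within 1 kb of an end (y axis) by the number of CpG in the promoter (x axis), for sperm and spermatid genes (left bars, exact 95% binomial intervals) and all protein-coding genes (right bars, grey). Counts under the bars give members and then all genes. Shares are 0 and 2.39% in the class poorest in CpG and 53.3% and 44.8% in the richest.

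High CpG number did not always go with a hotspot. Of the 15 members with 21 or more, 7 had no end hotspot: Adam15, Adam23, Catsperd, Spata2, Spata13, Spata17 and Spata18. The promoter counted for Spata13 is that of an inner start, and a knockout-only hotspot of strength 91 was centred 212 bp upstream of that start. Spata2, a broadly expressed gene, was 37593 bp from the nearest knockout hotspot. Conversely Spata4 had an end hotspot of strength 122 with 8 CpG and Spata16 one of 86 with 9.

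Motifs of transcription factors were counted in the same windows. The core of the cAMP response element (TGACGT on either strand), bound by the spermatid activator CREM, was found in promoters of 9.3% of members and 9.72% of all genes. The TATA box (TATAAA on either strand) was found in 14.0% and 14.9%, and CCAAT on either strand in 40.7% and 42.7%. These are matches of letters in a window of 300 bases, and each motif was counted whether or not it overlapped another.

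Orientation was known for 16 of the 20 end hotspots, from the strand of the promoter entry. Of these, 14 lay at the 5′ end and 2, at Catsperz and Spaca6, at the 3′ end. Measured from the annotated starts instead of the ends, 15 of 86 members (17.4%, 10.1 to 27.1%) had a knockout-only hotspot within 1 kb, against 27.8% of all protein-coding genes with an entry. The share of all genes lies just above this interval, which counts each gene as independent, and the difference was not tested. The count of 15 leaves out Catspere2, Catsperz and Spaca6, whose end hotspots lay over 1 kb from an annotated start. It adds 2 members whose start lies inside the gene. Adam19, a membrane protease gene on chromosome 11, had a hotspot of strength 30 (19.1 to 44.0) centred 43 bp from an inner start. Spata13 had one of 91 (72.5 to 113) centred 212 bp upstream of an inner start.

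Spata13 was also the single member with a wild type hotspot within 1 kb of a start (1 of 86, 1.16%, against 0.903% of all). This hotspot is shared: it had a strength of 46 (32.3 to 62.7) in the knockout, from 60732052 to 60733466 on chromosome 14, and of 159 (134 to 186) in the wild type. It lies at another inner start than the knockout-only hotspot, and the knockout had the lower strength there.

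Ends shared with another gene were examined because a hotspot between facing genes cannot be given to either. Another protein-coding gene had an end within 1 kb of 38 of 111 members (34.2%) and of 25.1% of all genes. Of these 38 members 8 had a knockout-only end hotspot (21.1%), and of the other 73 members 12 (16.4%). Over all protein-coding genes the shares were 34.3% and 22.6%. When each hotspot was given only to the gene with the nearest end, 18 members remained (16.2%, against 22.7% of all genes), without Catsper2 and Catsperz.

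Just outside the 1 kb limit, the nearest members were Spata5l1 with a knockout hotspot of strength 73 at 1292 bp, Adam19 at 1525 bp, Spata48 at 1678 bp, Prm1 at 1721 bp, Izumo1 at 1821 bp and Adam15 at 1864 bp. The limit leaves 6 members between 1 and 2 kb. The nearest wild type hotspot to a member's end lay at 1260 bp, inside Adam32.

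Another 66 sperm genes outside these families were counted in the same way. They include genes of the acrosome, the tail, sperm metabolism and the spermatid nucleus. A knockout-only hotspot lay at an end of 17 (25.8%, 15.8 to 38%), against 18% of members and 25.5% of all genes, and a wild type hotspot at an end of 1. The strongest was at Crem, the spermatid transcription activator gene (322), followed by Hook1, which encodes a linker needed for the sperm head (238), and Cfap43, an axoneme gene (187). Ropn1l, which encodes a protein of the tail sheath, had 146.

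Gene bodies were described next, because hotspots also fall far from gene ends. The members are short, with a median length of 11.2 kb against 17.3 kb for all protein-coding genes. A knockout hotspot was centred inside 24 of 111 members (21.6%, 14.4 to 30.4%), against 34.8% of all genes. A wild type hotspot was centred inside 15 (13.5%, 7.77 to 21.3%), against 19.8%. Per length the members were nearer to the rest: 44 knockout hotspots in 4.51 Mb made 9.77 per Mb, against 11.3 per Mb over all bodies, and 29 wild type hotspots made 6.44 against 6.63. The 23 members over 50 kb held 34 of the 44 knockout hotspots and 24 of the 29 wild type hotspots. In all, 81 of 111 members (73%, 63.7 to 81%) had no hotspot of either list at an end or inside, against 56.9% of all protein-coding genes, again with no allowance for length.

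Strengths inside members were like those inside other genes in the knockout, with a median of 102 against 102, and had a median of 144 against 164 in the wild type. The knockout hotspots covered 70.6 kb at a mean strength of 160, and the wild type hotspots 51.5 kb at a mean of 231. The summed strengths were 7056 in the knockout and 6711 in the wild type, or 0.179% and 0.16% of each list. Of the 44 knockout hotspots 21 were knockout-only (47.7%), against 51.7% of knockout hotspots inside any protein-coding gene, and 13 of the 21 lay within 1 kb of an end of the member. Counted by gene, 17 of 111 members (15.3%, 9.18 to 23.4%) held a knockout-only hotspot, against 25.1% of all genes, with no allowance for gene length. Of the 29 wild type hotspots 6 were wild-type-only (20.7%, 7.99 to 39.7%), against 18.3% inside any protein-coding gene. All 29 lay over 1 kb from both ends of the member.

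Adam12 held more hotspots than any other member. This gene of 342 kb on chromosome 7 encodes a membrane protease known from muscle and bone. It had 8 hotspots in the knockout and 5 in the wild type, and all 5 were shared. The strongest knockout hotspot inside any member lay here, from 134032096 to 134033694, with a strength of 665 (614 to 719), and it was knockout-only. It was centred 150 kb into the gene, far from either end. The shared hotspots of Adam12 had strengths of 629, 572, 470, 102 and 102 in the knockout, and of 715, 555, 498, 63 and 55 in the wild type. As deposited, the 3 strong ones were alike in both lists. Without Adam12 the members held 8.65 knockout and 5.76 wild type hotspots per Mb.

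**Figure D4:**
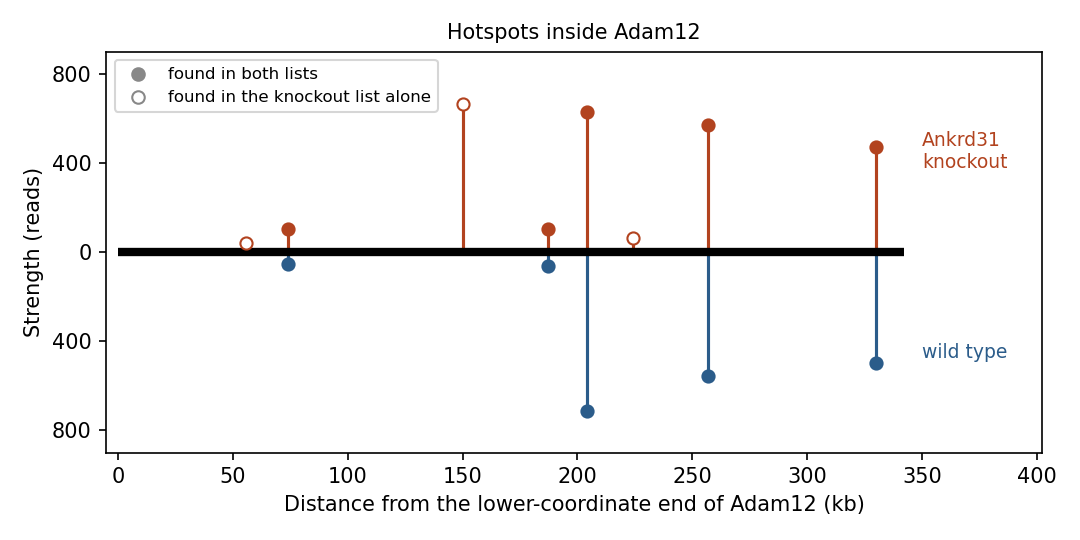
Hotspots inside Adam12, with the distance from the lower-coordinate end of the gene in kb (x axis) and strength in reads (y axis, both directions from 0), knockout above the gene and wild type below it. Filled points are shared and open points knockout-only. The knockout-only hotspot of strength 665 has no wild type point below it, while the 3 strongest shared hotspots are mirrored.

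Other long members held fewer. Spata13 had 4 knockout and 2 wild type hotspots, Adam22 had 3 and 4, and Adam32 had 3 and 2. Adam22, which encodes a synaptic adhesion protein without protease activity, had 2 wild-type-only hotspots, of strength 262 (231 to 296) and 101 (79.7 to 125). Spata5 had 1 of 223 (194 to 255), Odf2 had 2 of 75 and 61, and Odf1, the gene of a main protein of the dense fibres, had 1 of 74 (56.8 to 94.2). Odf2 thus lacked both its inner wild type hotspots in the knockout list and had an end hotspot in the knockout list alone. Catspere1 had 2 hotspots in each list, Catspere2 had 2 and 1, and Spata17 had 2 in each. Adam19 had 3 and 1, and Spata5 had 2 and 3.

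Across the 23 hotspots shared by both lists, all inside members, relative strength differed in both directions. Relative strength is the strength divided by the median strength, in its own list, of the shared hotspots on autosomes: 151 in the knockout and 182 in the wild type. The median log2 ratio of knockout over wild type was 0.19, with a range of -1.52 to 1.16, and it was -0.01 over all 11487 shared hotspots and -0.30 over the 5606 inside any protein-coding gene. Of the 23, 13 were higher and 10 lower in the knockout. Over 2-fold higher were 3, while 13.2% of all shared hotspots were, and over 2-fold lower were 2, while 15.8% of all were. The sign of this median depends on the scale: on strengths as deposited it was -0.08. That change of scale shifts the log2 ratio of every shared hotspot by the same amount. The place of the members relative to all shared hotspots therefore stays the same.

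The largest increase in relative strength was in Adam12, with 102 in the knockout against 55 in the wild type (log2 ratio 1.16). Next was Spata16, with 127 (105 to 152) against 69 (53.7 to 87.3), a log2 ratio of 1.15, and then Spata17, with 50 against 29 (1.06). A second weak hotspot of Adam12 had 102 against 63 (0.96), and 1 of Adam22 had 182 against 128 (0.78). These were weak hotspots in the wild type, below its list median of 152.

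The largest decrease was that of Spata13 at its inner start (log2 ratio -1.52). Catspere1 followed, with 132 (110 to 157) in the knockout against 328 (292 to 366) in the wild type (-1.04), and Adam32, with 211 (183 to 242) against 503 (458 to 551) (-0.98). Spata5 had 113 against 239 (-0.81), and a second hotspot of Adam32 had 73 against 151 (-0.78). Among the strong wild type hotspots of members, Spata48 had 373 (336 to 413) against 695 (643 to 750), a log2 ratio of -0.63, and Spata17 had 477 (434 to 523) against 643 (594 to 695), a ratio of -0.16. The Poisson intervals cover counting error only, and no spread between animals stands behind these ratios.

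**Figure D5:**
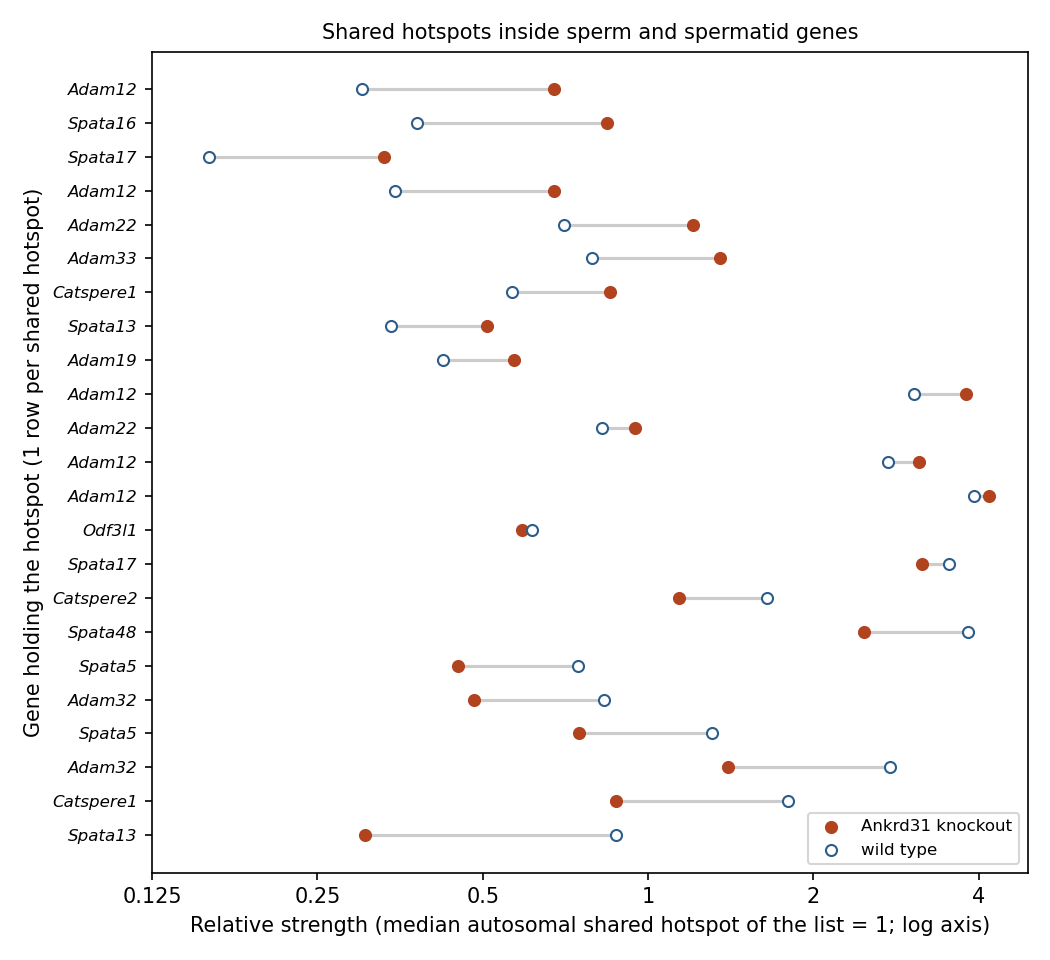
Relative strength on a log axis (x axis; the median autosomal shared hotspot of each list is 1) of the 23 shared hotspots inside sperm and spermatid genes, 1 row per hotspot in order of the log2 ratio. Filled points are the knockout and open points the wild type. The top row is a hotspot of Adam12 (log2 ratio 1.16) and the bottom row that of Spata13 (-1.52).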

How the data were processed

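DMC1-SSDS hotspot lists of Ankrd31 knockout and wild type testis were used. Per the submitters' processing notes, CASAVA, Bowtie2, BWA and MACS2 were applied with the build mm10, without roles or versions. The sources used here do not say whether samples were pooled. Per the file headers, each hotspot has a read count, a background estimate in reads, a strength signal (reads minus background), a percent strength and a rank score, all deposited by the authors. Library depth is unknown beyond the reads in hotspots.

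Genes, strands and promoters came from RefSeq tables of GRCm38.p6, the assembly that mm10 names. Start positions of hotspots are as deposited, and no header says whether they count from 0 or 1. Hotspots were paired at an overlap of 1 bp. Intervals are exact binomial (Clopper-Pearson) or exact Poisson and cover counting error only. Python 3.11.15, pandas 2.3.3, numpy 2.4.6, SciPy 1.17.1 and matplotlib 3.10.9 were used, and the counting was tested on simulated data. The members, lists and motifs were chosen with earlier results of these data known. Named were all members with an end hotspot, all Tnp and Prm genes, the strongest and most numerous hotspots inside members, the largest differences and the members near the limit. Of the list of other sperm genes, 3 symbols had no entry. Alternatives were other windows, stricter hotspot sets, overlaps and scales. H3K4me3 and input samples were not used here.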

Additional observations from a re-analysis of the deposited data

How the results depend on the processing

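The count of members with a knockout-only end hotspot, 20 in the main setting, was 17 (15.3%, against 22.8% of all genes) within 500 bp. It was 25 (22.5% against 27.9%) within 2 kb and 18 (16.2% against 22.7%) by nearest gene end. It stayed at 20 when sharing needed an overlap by 50% of the shorter hotspot. It was 10 (9.01%, against 14.6% of all genes) after the knockout list was shortened from the weak end to the length of the wild type list, and 8 (7.21% against 11.1%) with hotspots of at least the median strength. Wild type hotspots at member ends numbered 0 under each alternative except the 2 kb window, which gave 3. Members with a knockout hotspot inside were 24, or 13 counting those over 1 kb from both ends, and 19 among the strongest hotspots. Those with a wild type hotspot inside were 15, or 9 at or above the median strength. The median log2 ratio of shared hotspots, 0.19, was -0.08 on deposited strengths and 0.0 on shares of summed strength. It was -0.58 among hotspots with a wild type strength of at least the list median. Its sign thus depends on the scale and on which hotspots enter. A choice by wild type strength tends by itself to lower the ratio of knockout over wild type. The median over all shared hotspots under that choice was not counted, so the -0.58 says nothing particular to the members. Counts at annotated starts were 15, 15 and 16 within 1 kb, 500 bp and 2 kb. For alternatives given without a share, the share over all genes was not counted. No paired analysis was possible because the lists carry no replicate values, and no replicate could be left out for the same reason. Depth limits each count, since a hotspot under the calling threshold is not listed.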
